A study of Mus musculus with 6 samples.

Results

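Sytl2, Stra6l, Myof, Ankrd6, Slc6a15, Actn1, Lockd and Dcdc2a were 8 of the 31053 genes counted in nuclei of mouse kidney cortex, and all 8 were among the 16163 genes with enough UMIs to test over the whole cortex. They were picked because their summed level over all nuclei was higher in the knockouts, so the difference over the whole cortex, and any knockout over control difference of these genes, is given as a description without a p-value. What the choice did not use is where each rise sat: in injured tubule nuclei, in a larger share of such nuclei, or in every tubule class.

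Nuclear RNA was counted with 10x droplets in 3 knockout libraries (Podocin-Cre with Klf4 fl/fl) and 3 control libraries (Klf4 fl/fl without the Cre), all from FVB/N mice. Klf4 is a zinc finger transcription factor, and Podocin-Cre acts in podocytes, the filtering cells of the glomerulus. Nothing in the labels says whether a library pools mice, and p-values of knockouts over controls measure only the spread between these libraries. Podocytes held 4, 0 and 1 Klf4 UMIs in knockouts 1, 2 and 3, against 1, 0 and 0 in controls 1, 2 and 3, too few to check the deletion.

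The files held 5089 to 22080 barcodes per knockout library and 3919 to 21957 per control library, with 9356394 to 52478581 and 8270961 to 62016616 UMIs in total, and 54138 nuclei were kept. Knockout 1 and control 1 stood apart from the other 4 libraries, with the most barcodes and UMIs and with a median mitochondrial share of 1.02% and 2.67% of UMIs, against 0.087 to 0.163% elsewhere. Barcodes shared between libraries were few: 807 of the 54138 kept nuclei carried one, and the largest shared sets were 132 barcodes of knockout 1 with control 1 and 74 of knockout 3 with control 3. Classes were named from marker genes after clustering without the 8 genes, so each name stands for nuclei like that cell type. Proximal tubule was the name by default, for clusters of the first clustering in which no other class had a marker score of 0.3. Raised proximal markers were not required. In cluster 0, with 3745 nuclei, the mean log2 ratio of proximal markers to all other nuclei was -0.0089. The names are rebuilt, and values may depart from those of the study for that reason.

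The proximal tubule reabsorbs most of the filtrate and is the part of the nephron most easily injured. Injured proximal cells lose transporters, switch on genes such as Havcr1 (kidney injury molecule 1), Vcam1 (an adhesion molecule) and C3 (complement), and can re-enter the cell cycle. The 8 genes cover uptake, membrane traffic, the cytoskeleton, polarity and proliferation. Slc6a15 encodes a sodium-dependent carrier of neutral amino acids, best known from neurons. Stra6l encodes a receptor related to Stra6 that takes up retinol from its binding protein. Ankrd6, also called diversin, acts in Wnt signalling and planar cell polarity. Dcdc2a encodes a doublecortin-domain protein that binds microtubules and sits in cilia. Sytl2 docks Rab27-bearing vesicles at the plasma membrane. Myof (myoferlin) serves membrane repair and fusion, and Actn1 (alpha-actinin 1) crosslinks actin at adhesions and stress fibres. Lockd is a long noncoding RNA downstream of Cdkn1b, the gene of the cell cycle inhibitor p27.

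Over the whole cortex every knockout library stood above every control library for all 8 genes, the pattern for which they were chosen. The same non-overlap held for 10.7% of the 16163 genes tested, and 0.173% passed an adjusted p of 0.05 (0.13% as higher in knockouts), so nothing is read from the count of 8. Levels are in CPM, the UMIs of a gene relative to all UMIs of the library or class, and log2 changes are those of the fit with their standard error (SE).

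Slc6a15 (ENSMUSG00000019894, chr10:103367783-103419377, plus strand; all gene coordinates are mm10) stood at 320, 350 and 410 CPM in knockouts 1, 2 and 3, against 131, 103 and 103 CPM in controls 1, 2 and 3, a log2 change of 1.61 ± 0.18 (SE). Stra6l (ENSMUSG00000028327, chr4:45848664-45887008, plus strand) stood at 34.3, 27.5 and 40.4 CPM in knockouts, against 5.68, 4.38 and 6.94 CPM in controls, a log2 change of 2.51 ± 0.24. For both genes the 3 knockouts lay close together and well clear of the controls. Ankrd6 (ENSMUSG00000040183, chr4:32804035-32950841, minus strand) stood at 101, 124 and 91.5 CPM in knockouts, against 32.5, 28.5 and 30.0 CPM in controls, a log2 change of 1.73 ± 0.18. Dcdc2a (ENSMUSG00000035910, chr13:25056004-25210706, plus strand) stood at 76.3, 93.1 and 79.3 CPM in knockouts, against 23.9, 21.4 and 27.2 CPM in controls, a log2 change of 1.72 ± 0.16. The spread between libraries of a group was small beside the gap for these polarity and cilium genes as well.

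Sytl2 (ENSMUSG00000030616, chr7:90302252-90410719, plus strand) stood at 104, 82.8 and 108 CPM in knockouts, against 27.2, 23.6 and 21.1 CPM in controls, a log2 change of 1.96 ± 0.17. Myof (ENSMUSG00000048612, chr19:37899036-38043577, minus strand) stood at 57.6, 58.6 and 71.9 CPM in knockouts, against 20.2, 18.9 and 14.8 CPM in controls, a log2 change of 1.73 ± 0.18. Actn1 (ENSMUSG00000015143, chr12:80167547-80260371, minus strand) stood at 57.5, 50.6 and 58.9 CPM in knockouts, against 23.2, 23.7 and 20.8 CPM in controls, with the smallest log2 change of the 8, 1.24 ± 0.14. The genes on the opposite strand within Actn1, Gm47767 and Gm47766, held at most 3 UMIs in any library. Lockd (ENSMUSG00000098318, chr6:134929092-134956798, plus strand, 3.58 kb past the end of Cdkn1b) stood at 15.4, 28.3 and 27.4 CPM in knockouts, against 2.58, 3.48 and 3.47 CPM in controls, with the largest log2 change of the 8, 2.86 ± 0.30. Knockout 1 was the lowest knockout for Lockd and the groups did not overlap. Gm44238, which overlaps Lockd on the opposite strand, held 19, 3 and 3 UMIs in the knockouts, against 0, 1 and 0 in the controls, and whether the counting used strand is not stated in these sources, so reads of this pair cannot be told apart.

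**Figure D1:**
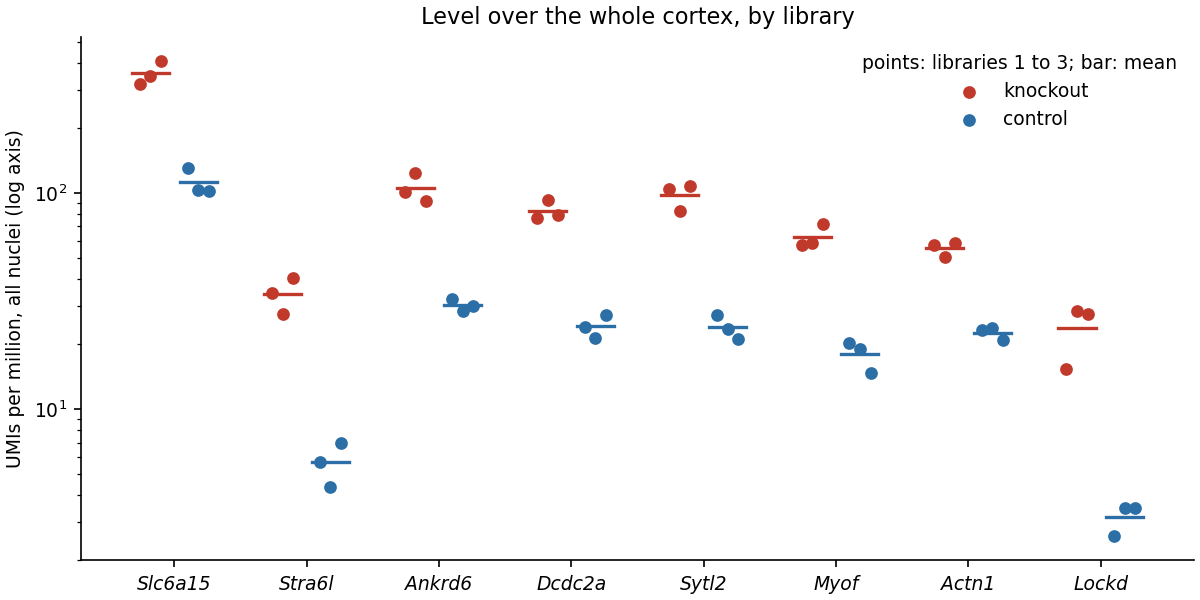
Level of the 8 genes over all nuclei, in CPM on a log axis, with a point for each of the 3 knockout and 3 control libraries and a bar at each group's mean. The knockout points of every gene lie above its control points; the means are 360 and 112 for Slc6a15 and 23.7 and 3.18 for Lockd, knockout and control.

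The mix of nuclei differed between the groups in ways that bear on these sums. Injured tubule nuclei (2015 in knockouts and 100 in controls) were 8.13, 6.15 and 3.97% of nuclei in knockouts 1, 2 and 3, against 0.519, 0.134 and 0.198% in controls 1, 2 and 3. The mean share was 6.08 ± 2.08% in knockouts and 0.284 ± 0.206% in controls (SD, n = 3 each), a difference of 5.80 percentage points. The groups did not overlap and the two-sided exact permutation test gave p = 0.1, the smallest that 20 assignments allow. Without knockout 1 and control 1 the shares were 5.06% and 0.166%. With the 8 genes let into the clustering they were 2.99% and 0.045%, and with every cluster put in the class of its highest marker score, which adds unnamed clusters 20 and 48, 9.54% and 0.845%. Cycling nuclei were 1.74, 5.45 and 4.67% in knockouts, against 0.0855, 0.241 and 0.159% in controls (exact permutation p = 0.1). Parietal epithelial nuclei were 1.23 ± 0.509% in knockouts and 0.268 ± 0.0891% in controls (SD, n = 3 each; exact permutation p = 0.1). The proximal tubule supplied 42.4 ± 8.17% of nuclei in knockouts and 56.2 ± 14% in controls (SD, n = 3 each; exact permutation p = 0.3).

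Injured nuclei of the groups were not alike in their markers. The summed 12 genes of the tubule injury list stood at 1849, 2026 and 1839 CPM in the injured nuclei of knockouts 1, 2 and 3, against 707, 519 and 709 CPM in those of controls 1, 2 and 3. The summed proximal markers Slc34a1, Lrp2, Cubn and Slc5a12 stood at 3145, 2751 and 3213 CPM in the knockouts' injured nuclei, against 5721, 1558 and 5020 CPM in the controls'. The injured class joined clusters 15 and 34, and 625 of the 629 nuclei of cluster 34 came from knockouts. The 5 and 10 injured nuclei of controls 2 and 3 hold few UMIs, so levels there rest mainly on the 85 nuclei of control 1. The part of these marker differences in the levels below was not tested.

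Each rise was split into a part from the changed share of UMIs of every class and a part from changed levels within classes, with mixed and unnamed clusters kept as classes of their own. Changed shares made up over 50% of the rise for 1 gene, Lockd. They made up 40.8 ± 0.544% for Sytl2, 41.6 ± 11.7% for Myof, 42.2 ± 8.08% for Actn1 and 34.1 ± 10.4% for Ankrd6 (SD over the 3 knockouts). They made up 21.9 ± 2.27% for Dcdc2a, 11.7 ± 10.3% for Stra6l and -1.70 ± 6.13% for Slc6a15. The Stra6l value was 18.2% without knockout 3, whose own value was 1.20% against 19.9 and 18.03% in knockouts 1 and 2, and it ran between 2.53 and 18.5% over the alternatives. That of Slc6a15 ran between -10.3 and 9.89% and took either sign, so it is read only as small. Lockd stood at 101 ± 20.1% and its level part was close to 0, since a lower level in cycling nuclei offset gains elsewhere. Without knockout 1 and control 1 the values were 95.4% for Lockd, 42.0% for Actn1, 37.4% for Myof, 35.1% for Sytl2, 32.5% for Ankrd6, 19.2% for Dcdc2a, 9.13% for Stra6l and -0.75% for Slc6a15. Unnamed clusters 31, 33 and 41 had medians of 8774, 5979 and 6813 UMIs per nucleus, against at most 3362 in any other cluster, and carried 6.83, 7.54 and 1.14% of the rise of Slc6a15. Whether they hold several nuclei per droplet was not tested.

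**Figure D2:**
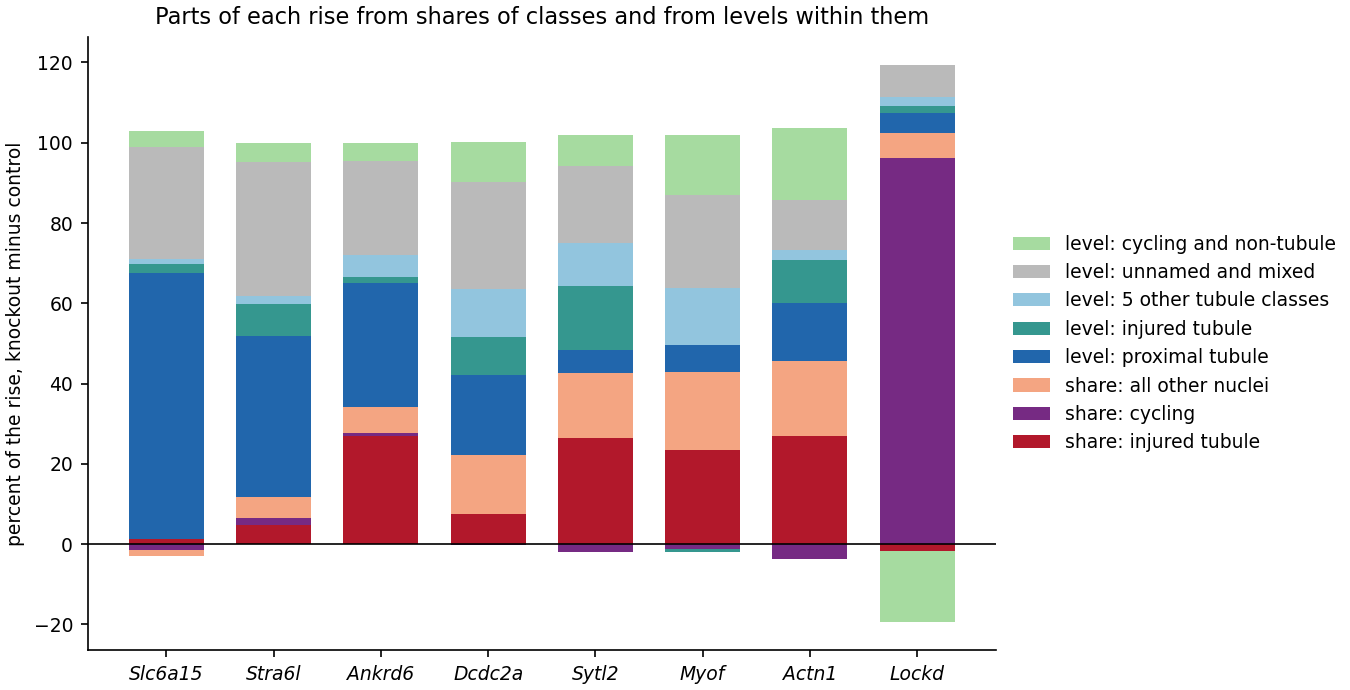
Parts of each rise, in percent of the knockout minus control difference in CPM over all nuclei, from shares of classes and from levels within classes. Slc6a15 rests on levels in proximal tubule nuclei (66.2%), Lockd on the share of cycling nuclei (96.2%), and Sytl2, Myof, Actn1 and Ankrd6 each take between 23.5 and 27.0% from the share of injured tubule nuclei.

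Slc6a15 was higher within proximal tubule nuclei and shares of classes made up little of its rise. It stood at 390, 486 and 637 CPM in the proximal tubule nuclei of knockouts 1, 2 and 3, against 160, 132 and 120 CPM in those of controls 1, 2 and 3, a log2 change of 1.86 ± 0.24 (SE). Knockout 3 was highest and the groups did not overlap. Levels in proximal tubule nuclei carried 66.2% of the rise, levels in unnamed clusters 16.6% and injured nuclei 3.53% by share and level together. Injured nuclei held 450, 316 and 407 CPM in knockouts, against 135, 260 and 295 CPM in controls, which was above the proximal tubule level of the same library in knockout 1 and in controls 2 and 3.

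The higher level ran through the segments of the proximal tubule. Of the 8 proximal clusters with at least 10 nuclei in every library, all 8 had a higher mean Slc6a15 level in knockouts, by 1.79 to 3.44 times, and in 7 the groups did not overlap. In cluster 1, which had the highest level of S3 markers among these 8, Slc6a15 stood at 1218, 1686 and 1225 CPM in knockouts, against 383, 433 and 385 CPM in controls. Proximal tubule nuclei of the groups lay in partly different clusters: cluster 0 held 2929, 574 and 79 nuclei of knockouts 1, 2 and 3, against 47, 14 and 102 of controls 1, 2 and 3, and cluster 7 held 23, 35 and 26 of knockouts, against 3, 216 and 1585 of controls. With each proximal cluster taken as a class of its own, shares made up 9.89% of the rise of Slc6a15 and 18.5% of that of Stra6l. Clusters 10 and 11 could not be compared, since 913 of 929 and 480 of 498 nuclei came from knockout 3. Slc6a15 was most abundant in cluster 11, at 1450 CPM over all libraries.

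The other members were less even over the same 8 clusters. The knockout mean was higher in all 8 for Sytl2, Ankrd6 and Stra6l, in 7 for Dcdc2a, Actn1 and Lockd, and in 6 for Myof. The groups did not overlap in 6 clusters for Sytl2 and for Ankrd6, in 5 for Stra6l, in 3 for Myof and in 2 each for Dcdc2a, Actn1 and Lockd. The lowest ratio of knockout to control means in a cluster was 0.459 for Myof, 0.613 for Actn1, 0.85 for Dcdc2a and 0.911 for Lockd.

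Outside the proximal tubule Slc6a15 was set beside the proximal markers Slc34a1, Lrp2, Cubn and Slc5a12, whose UMIs were found in every class. It amounted to 6.33% of their sum in proximal tubule nuclei of knockouts and 1.6% in controls. The same ratio was 7.03% and 2.28% in thick ascending limb nuclei, 4.58% and 1.49% in intercalated nuclei, and 4.74% and 1.91% in endothelial nuclei, knockouts and controls. It was 4.53% and 2.29% in distal convoluted tubule, 6.80% and 2.49% in connecting tubule, and 3.98% and 2.42% in principal nuclei. How much of the Slc6a15 signal in those classes is free RNA was not tested. Within controls Slc6a15 was lower in thick ascending limb than in proximal tubule nuclei, by a log2 difference of -1.86 ± 0.30 (SE; edgeR adjusted p = 6.1e-07), and it was lower in all 5 other tubule classes past an adjusted p of 0.05. In those classes 41.5% (thick ascending limb), 40.9% (distal convoluted tubule), 39.9% (connecting tubule), 32.5% (principal) and 35.1% (intercalated) of genes differed from proximal tubule nuclei in either direction.

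Stra6l was higher within proximal tubule nuclei, and also in injured nuclei and in an unnamed cluster. It stood at 26.5, 23.1 and 48.5 CPM in the proximal tubule nuclei of knockouts 1, 2 and 3, against 7.0, 4.53 and 8.44 CPM in those of controls 1, 2 and 3, a log2 change of 2.22 ± 0.36 (SE). Knockout 3 was again the highest, and the groups did not overlap. Injured nuclei held 100, 87.0 and 66.4 CPM in knockouts, while those of all 3 controls held 1 UMI together. The pooled ratio there was 16.1, with a 95% interval of 2.88 to 639 that covers counting error only.

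Unnamed cluster 20, led by Slc20a1 (a phosphate carrier), Stra6l and Rad51b (a DNA repair gene), had 712, 186 and 90 nuclei in knockouts, against 42, 5 and 26 in controls. Stra6l stood there at 140, 144 and 141 CPM in knockouts, against 0 UMIs in each control, which made the knockouts at least 8.74-fold higher if 3 UMIs are taken as the limit for the pooled controls. Levels in proximal tubule nuclei carried 40.1% of the rise, while share and level together gave 12.8% for injured nuclei and 12.8% for cluster 20. The window around the Stra6l start, shown because its log2 change was the largest of the 8 in proximal tubule nuclei, lies on the plus strand of chr4:45848566-45848865 (RefSeq, GRCm38.p6) and has no capitals since it holds no CCAAT box:
Stra6l promoter: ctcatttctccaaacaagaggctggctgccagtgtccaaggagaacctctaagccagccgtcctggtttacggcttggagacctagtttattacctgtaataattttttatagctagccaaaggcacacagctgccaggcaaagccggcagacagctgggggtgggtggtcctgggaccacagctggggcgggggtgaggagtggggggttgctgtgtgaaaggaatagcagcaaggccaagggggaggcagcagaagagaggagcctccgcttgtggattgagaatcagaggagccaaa

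Ankrd6 was higher in proximal tubule nuclei, and the larger share of injured nuclei carried a further part of its rise. It stood at 64.8, 95.3 and 77.9 CPM in the proximal tubule nuclei of knockouts 1, 2 and 3, against 29.6, 24.3 and 28.8 CPM in those of controls 1, 2 and 3, a log2 change of 1.5 ± 0.21 (SE). Injured nuclei held 387, 640 and 553 CPM in knockouts, against 363, 779 and 532 CPM in controls. The injured nuclei of the groups overlapped, with means of 527 ± 129 CPM in knockouts and 558 ± 209 CPM in controls (SD, n = 3 each). The share of injured nuclei carried 27.0% of the rise, the level within them 1.43%, and the level in proximal tubule nuclei 31.0%.

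Ankrd6 also stood higher in intercalated nuclei, the acid-base cells of the collecting duct, at 136, 130 and 179 CPM in knockouts, against 60.0, 42.0 and 54.0 CPM in controls (log2 change 1.42 ± 0.24, SE). In distal convoluted tubule nuclei it stood at 44.4, 37.7 and 17.3 CPM in knockouts, against 7.34, 8.80 and 9.30 CPM in controls, too low for the fit. Both classes had groups that did not overlap. In thick ascending limb, connecting tubule and principal nuclei Ankrd6 had too few UMIs for the fit.

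Dcdc2a was higher in many classes at once. It stood at 50.02, 49.4 and 48.5 CPM in the proximal tubule nuclei of knockouts 1, 2 and 3, against 23.7, 23.0 and 23.9 CPM in those of controls 1, 2 and 3, a log2 change of 1.05 ± 0.15 (SE). The libraries of a group lay close together in this sum over all proximal tubule nuclei, but single proximal clusters stood apart in 2 of 8 only. In thick ascending limb nuclei it stood at 109, 186 and 85.7 CPM in knockouts, against 15.3, 11.9 and 28.8 CPM in controls (log2 change 2.75 ± 0.41). In distal convoluted tubule nuclei it stood at 99.5, 150.9 and 283 CPM in knockouts, against 23.9, 61.6 and 40.3 CPM in controls (log2 change 2.24 ± 0.45). The groups did not overlap in any of these 3 classes, and the log2 changes of the distal pair were the larger ones, a difference between classes that was not tested. Thick ascending limb nuclei of the groups lay in partly different clusters. Cluster 29 held 310, 133 and 154 nuclei of knockouts, against 74, 35 and 68 of controls. Cluster 17 held 70, 40 and 291 of knockouts, against 437, 207 and 76 of controls. The part of this mix in the levels of this class, for any of the 8 genes, was not tested.

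Injured nuclei held 201, 324 and 244 CPM of Dcdc2a in knockouts, against 60.6 CPM (9 UMIs) in control 1 and 0 UMIs in the 15 injured nuclei of controls 2 and 3. The rise was spread over proximal tubule levels (20.0%), unnamed clusters (17.4% by level), injured nuclei (16.9% by share and level), distal classes (11.9% by level) and parietal nuclei (11.02% by share and level). Unnamed cluster 49, with 88, 45 and 35 nuclei in knockouts and 0, 0 and 2 in controls, held Dcdc2a at 715, 1290 and 856 CPM in knockouts and Sytl2 at 706, 445 and 1283 CPM.

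**Figure D3:**
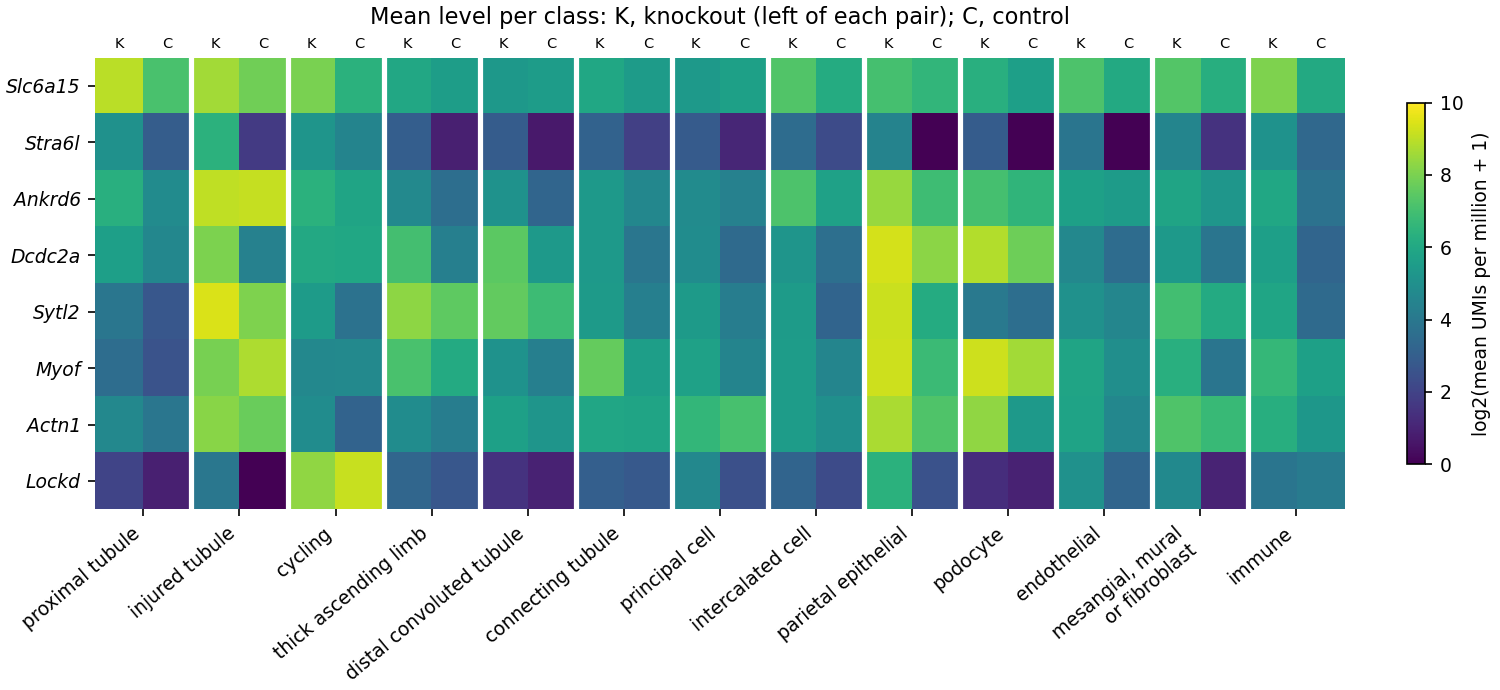
Mean level of each gene in each named class, as log2 of mean CPM plus 1, with knockout left of control in every pair of columns. Sytl2 is high in injured, thick ascending limb and distal convoluted tubule nuclei, and in parietal epithelial nuclei of knockouts. Lockd is high in cycling nuclei of both groups, at 320 and 568 CPM.

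Sytl2 was high in injured, thick ascending limb and distal convoluted tubule nuclei and, in knockouts, in parietal epithelial nuclei. Its level in proximal tubule nuclei was low. Injured nuclei held 643, 601 and 856 CPM in knockouts 1, 2 and 3, against 289 CPM (43 UMIs), 519 CPM (2 UMIs) and 0 UMIs in controls 1, 2 and 3. Proximal tubule nuclei held 13.5, 15.9 and 12.7 CPM in knockouts, against 4.97, 7.41 and 4.15 CPM in controls (log2 change 1.39 ± 0.29, SE). Injured nuclei carried 42.5% of the rise, 26.4% by share and 16.1% by level, and proximal tubule nuclei 11.4%. All groups compared in these sentences stood apart with the knockouts on top.

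Among the other tubule classes Sytl2 stood at 250, 312 and 384 CPM in thick ascending limb nuclei of knockouts, against 182, 155 and 209 CPM in controls (log2 change 0.76 ± 0.23). In distal convoluted tubule nuclei it stood at 164, 214 and 196 CPM in knockouts, against 139, 61.6 and 146 CPM in controls (log2 change 0.51 ± 0.29). In intercalated nuclei it stood at 59.5, 43.3 and 30.3 CPM in knockouts, against 19.7, 3.23 and 2.16 CPM in controls (log2 change 1.95 ± 0.57). None of the 3 classes had groups that overlapped. In parietal epithelial nuclei, the lining of Bowman's capsule, Sytl2 stood at 491, 625 and 657 CPM in knockouts, against 84.4, 81.8 and 43.2 CPM in controls (log2 change 2.99 ± 0.38).

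The injured part of Myof came from share in the split, with a level part that rests on few control UMIs. Injured nuclei held 240, 253 and 252 CPM in knockouts 1, 2 and 3, against 222, 1039 (4 UMIs) and 59.1 CPM (1 UMI) in controls 1, 2 and 3, so the groups overlapped. Their share carried 23.5% of the rise and the level within them -0.512%. Connecting tubule nuclei held 128, 151.1 and 309 CPM in knockouts, against 62.1, 21.0 and 59.8 CPM in controls (log2 change 1.83 ± 0.42, SE). Thick ascending limb nuclei held 100, 134 and 182 CPM in knockouts, against 76.5, 63.7 and 64.7 CPM in controls (log2 change 0.95 ± 0.28). Levels in distal classes made up 14.4% of the rise and levels outside the tubule 15.4%.

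Podocytes and parietal nuclei were the classes outside the tubule in which Myof was high. Podocytes held 356, 778 and 686 CPM in knockouts, against 355, 397 and 413 CPM in controls, and the groups overlapped (log2 change 0.68 ± 0.30). Parietal nuclei held 361, 642 and 786 CPM in knockouts, against 84.4, 81.8 and 173 CPM in controls (log2 change 2.48 ± 0.46). Mesangial, mural or fibroblast nuclei held 69.4, 97.7 and 66.7 CPM in knockouts, against 11.4, 15.8 and 14.7 CPM in controls (log2 change 2.43 ± 0.39). Proximal tubule nuclei held 10.6, 10.7 and 11.3 CPM in knockouts, against 5.23, 7.82 and 1.86 CPM in controls (log2 change 1.18 ± 0.46).

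Actn1 had its largest part in injured nuclei and most of the rest in glomerular and proximal nuclei. Injured nuclei held 251, 258 and 393 CPM in knockouts 1, 2 and 3, against 67.3, 260 and 295 CPM in controls 1, 2 and 3, with overlap. Their share carried 26.9% of the rise and the level within them 10.6%. Podocytes held 123, 353 and 492 CPM in knockouts, against 52.3, 0 and 70.7 CPM in controls (log2 change 2.69 ± 0.67, SE), without overlap. Parietal nuclei held 308, 454 and 511 CPM in knockouts, against 113, 81.8 and 259 CPM in controls (log2 change 1.54 ± 0.42).

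In the tubule the differences of Actn1 were small. Proximal tubule nuclei held 23.0, 23.1 and 27.0 CPM in knockouts, against 17.6, 16.5 and 8.73 CPM in controls (log2 change 0.76 ± 0.29, SE). Principal nuclei, the water and sodium handling cells of the collecting duct, held 162, 53.0 and 78.6 CPM in knockouts, against 110, 175 and 118 CPM in controls, with a log2 change of -0.23 ± 0.43 that was positive under 1 of 15 alternative settings. It was the only negative value among the members fitted in the 6 tubule classes. Between the injured clusters, Actn1 stood at 375, 694 and 984 CPM in cluster 34 of knockouts 1, 2 and 3, against 191, 161.1 and 220 CPM in cluster 15 of the same libraries. Ankrd6 did not differ in that way, at 366, 636 and 574 CPM in cluster 34 against 396, 641 and 547 CPM in cluster 15.

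Lockd was at a high level in cycling nuclei of both groups, and the share of such nuclei carried 96.2% of its rise. Controls had only 14, 9 and 8 cycling nuclei, so this level does not place most of their Lockd UMIs there. Cycling nuclei held 351, 306 and 302 CPM in knockouts 1, 2 and 3, against 908, 264 and 532 CPM in controls 1, 2 and 3. Their means were 320 ± 27.0 CPM in knockouts and 568 ± 324 CPM in controls (SD, n = 3 each), with overlap, and the control values rest on 37, 4 and 14 UMIs. Levels in cycling nuclei accordingly took -24.0% of the rise. Parietal nuclei held 44 Lockd UMIs in knockouts and 1 in controls, and injured nuclei 33 and 0. Cdkn1b, its neighbour, stood at 25.6 ± 0.937 CPM in knockouts and 27.2 ± 4.68 CPM in controls over the whole cortex (SD, n = 3 each), a log2 change of -0.14 ± 0.16 (SE, edgeR adjusted p = 0.86).

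No member stood apart in every tubule class. Its mean was higher in knockouts in all 6 tubule classes for Sytl2, Stra6l, Myof, Ankrd6, Lockd and Dcdc2a, in 5 for Actn1 and in 4 for Slc6a15. The groups did not overlap in 5 of the 6 classes for Sytl2, 4 for Myof and for Dcdc2a, 3 for Ankrd6 and for Slc6a15, 2 for Stra6l and for Actn1 and 1 for Lockd, genes with too few UMIs for the fit included. By the fit, all 8 genes were tested in proximal tubule nuclei and all 8 had groups that did not overlap, beside 7.04% of the 13097 genes tested there. Of the fitted genes, 4 of 5 did not overlap in thick ascending limb nuclei (5.39% of all genes), 2 of 3 in distal convoluted tubule (6.18%), 2 of 3 in connecting tubule (5.81%), 4 of 5 in intercalated (6.44%) and 0 of 1 in principal nuclei (7.15%). None of the 8 passed an adjusted p of 0.05 by edgeR in any of these 6 classes, in which 0.0382% of genes did so in proximal tubule nuclei (0.00764% as higher in knockouts), 0.0155% in intercalated nuclei and 0% in the other 4. With same-numbered libraries as a block, edgeR called 1 member in proximal tubule nuclei (0.084% of all genes) and 2 in intercalated nuclei (0.449%). It called 1 each in thick ascending limb (1.62%), distal convoluted tubule (0.684%) and connecting tubule nuclei (0.565%). DESeq2 called 5 in proximal tubule nuclei (0.932% of all genes) and 1 each in thick ascending limb (0.238%), distal convoluted tubule (0.0441%) and intercalated nuclei (0.186%). In parietal nuclei 2 of the 6 genes fitted, Sytl2 and Myof, passed it, beside 4.84% of 2189 genes, and in mesangial, mural or fibroblast nuclei 1 of 5, Myof, beside 0.23% of 5648. Outside the tubule the groups of fitted genes did not overlap for 4 of 6 in parietal nuclei (15.3% of all genes), 1 of 4 in podocytes (6.4%), 2 of 5 in mesangial, mural or fibroblast nuclei (7.35%), 0 of 2 in endothelial nuclei (6.45%) and 1 of 1 in immune nuclei (6.46%). Because the genes were chosen on this contrast, nothing is read from these counts.

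**Figure D4:**
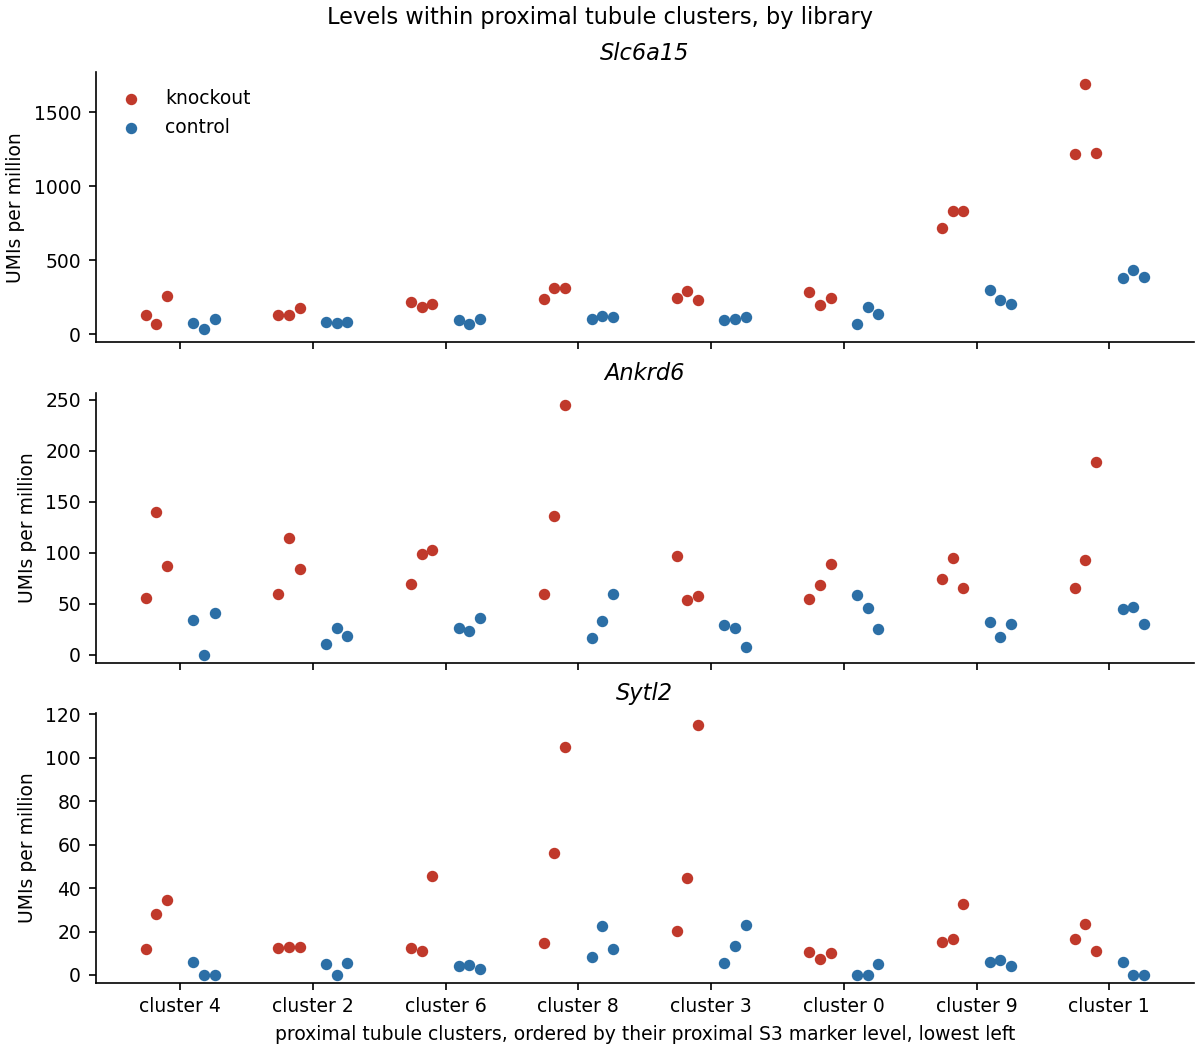
Levels in CPM of 3 of the genes in each proximal tubule cluster, by library, with clusters ordered by their level of S3 markers. Slc6a15 is higher in the knockout mean in all 8 clusters with at least 10 nuclei in every library, by 1.79 to 3.44 times.

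Injured and proximal tubule nuclei were also compared within the controls, with clusters made without these genes. The fit held the sums of all classes of the 3 control libraries. Its p-values rest on the spread of these many sums, not on that of the injured over proximal difference between 3 libraries. The clusters came from all 6 libraries together, so control nuclei were named injured by likeness to mostly knockout nuclei. Choosing genes that rose over the whole cortex, where the injured share also rose, favours genes high in injured nuclei. The count of members called is therefore no independent support. Of 6584 genes tested, 7.9% differed between injured and proximal tubule nuclei of the controls at an adjusted p of 0.05, 2.67% being higher in injured nuclei, and 4 of the 7 members tested were among these higher genes. Myof was higher in injured nuclei by a log2 difference of 5.31 ± 0.47 (SE; edgeR adjusted p = 1.3e-12), Sytl2 by 5.26 ± 0.48 (adjusted p = 3.1e-12), Ankrd6 by 3.51 ± 0.34 (adjusted p = 1.6e-11) and Actn1 by 2.52 ± 0.60 (adjusted p = 0.0035). The median over all genes was -0.23. Dcdc2a (0.93 ± 0.62, adjusted p = 0.44) and Slc6a15 (0.08 ± 0.42, adjusted p = 0.97) missed the threshold. In data simulated for this comparison 0% of changes of log2 1 and 7.79% of changes of log2 2 were called, so a miss says little.

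That comparison leans on 85, 5 and 10 injured nuclei. Without control 1 the Sytl2 difference was 3.44 ± 1.6 (edgeR adjusted p = 0.27), and without control 3 the Actn1 difference was 1.78 ± 0.60 (adjusted p = 0.073), while Myof and Ankrd6 stayed past the threshold without any single control. Stra6l had too few control UMIs for this fit and Lockd had 0 UMIs in control injured nuclei. In the knockouts alone, given without a test, the log2 difference between injured and proximal tubule nuclei was 5.49 ± 0.22 for Sytl2, 4.37 ± 0.22 for Myof, 3.46 ± 0.23 for Actn1, 2.58 ± 0.20 for Ankrd6, 2.19 ± 0.24 for Dcdc2a, 1.35 ± 0.25 for Stra6l and -0.47 ± 0.18 for Slc6a15 (SE).

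None of the 4 genes was a marker of injured nuclei alone. In the same control fit Sytl2 was higher in thick ascending limb than in proximal tubule nuclei by 5.17 ± 0.32 (edgeR adjusted p = 7.1e-20; 41.5% of genes differed there) and in distal convoluted tubule nuclei by 4.64 ± 0.34 (adjusted p = 3e-17; 40.9%). Myof was higher in podocytes by 6.47 ± 0.32 (adjusted p = 4e-24; 31.6%), and Dcdc2a likewise by 3.37 ± 0.32 (adjusted p = 2.6e-13). Actn1 was higher in principal nuclei by 2.93 ± 0.39 (adjusted p = 1.2e-08; 32.5%) and Ankrd6 in podocytes by 1.85 ± 0.34 (adjusted p = 1.2e-05). Lockd was higher in cycling than in proximal tubule nuclei by 8.78 ± 0.66 (adjusted p = 1.3e-14), where 6.3% of genes differed.

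To see whether a rise was also present in nuclei without a read of the injury list, each proximal tubule and injured nucleus was thinned to 1000 UMIs and sorted by its UMIs of that list. Thinning left out 1817 of 13262 knockout and 1556 of 15884 control proximal tubule nuclei, and 363 of 2015 knockout and 18 of 100 control injured nuclei, as too shallow. Among the 9720 knockout and 11997 control nuclei with 0 such UMIs, 30.5 ± 5.58% of knockout and 12.3 ± 1.41% of control nuclei held a Slc6a15 UMI (SD, n = 3 libraries each). Ankrd6 was present in 7.69 ± 0.432% of knockout and 2.72 ± 0.113% of control nuclei, and Stra6l in 3.03 ± 1.36% and 0.640 ± 0.0247%. The groups did not overlap for these 3 genes. Their mean shares in knockouts exceeded those of knockout endothelial nuclei at the same 1000 UMIs, which were 17.99 ± 7.33%, 4.77 ± 4.15% and 0.758 ± 1.31%. Single libraries overlapped for Ankrd6 and Stra6l. Endothelial nuclei reached 7.5% and 2.27% for them, against lowest values of 7.27% and 1.81% in nuclei with 0 injury UMIs. In control endothelial nuclei the shares were 2.62 ± 0.106% for Slc6a15, 2.40 ± 2.25% for Ankrd6 and 0% for Stra6l. Slc6a15 was thus also higher in knockout endothelial nuclei, without overlap. The difference there was 15.4 percentage points, beside 18.2 in nuclei with 0 injury UMIs. How much of either is free RNA was not tested.

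The other 5 genes were also higher in the knockout nuclei with 0 injury UMIs, but at shares close to or below those of endothelial nuclei. Sytl2 was in 2.27 ± 0.340% of knockout and 0.489 ± 0.114% of control nuclei, beside 3.11% and 2.59% of endothelial nuclei. Actn1 was in 2.88 ± 0.0152% and 1.62 ± 0.785%, beside 5.11% and 2.37%, and Myof in 1.56 ± 0.0554% and 0.581 ± 0.271%, beside 4.94% and 1.06%, knockouts and controls each time. Dcdc2a was in 5.03 ± 0.257% of knockout and 2.31 ± 0.222% of control nuclei, beside 4.68% and 0.669%, and Lockd was in 0.305 ± 0.181% and 0.0567 ± 0.0497%, beside the same endothelial shares as Dcdc2a. Endothelial nuclei are no clear blank for Sytl2, Myof and Lockd, since in controls these were higher in them than in proximal tubule nuclei by log2 differences of 2.32 ± 0.52, 2.72 ± 0.46 and 2.96 ± 0.92 (SE; edgeR adjusted p = 0.00029, 3.1e-06 and 0.0086; 37.2% of genes differed). In the same fit Dcdc2a was lower in endothelial nuclei (-1.37 ± 0.53, adjusted p = 0.037). Actn1 missed the threshold (0.59 ± 0.48, adjusted p = 0.36). How much of these low shares is free RNA was not tested. Only 191 knockout and 269 control endothelial nuclei were deep enough for this.

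Among the 511 knockout nuclei with at least 3 injury UMIs, Sytl2 was in 47.7 ± 15%, Actn1 in 34.2 ± 8.72%, Ankrd6 in 31.6 ± 0.912%, Myof in 21.3 ± 3.22%, Dcdc2a in 19.2 ± 4.88% and Stra6l in 8.72 ± 3.22% (SD, n = 3). Slc6a15 was in 29.4 ± 2.83% of them, beside 30.5 ± 5.58% of knockout nuclei with 0 injury UMIs. In the knockouts Sytl2 was thus rare in nuclei without injury UMIs and frequent in those with 3 or more, while the share with a Slc6a15 UMI lay within the spread between libraries at both ends. Only 29 control nuclei reached 3 injury UMIs, all from control 1, and 13.8% of them held Sytl2 and 13.8% Slc6a15. Without thinning, at median depths of 1374 to 1831.5 UMIs in knockouts and 1054 to 2151 in controls, a Slc6a15 UMI was found in 36.2, 36.7 and 50.3% of proximal tubule nuclei of knockouts 1, 2 and 3, against 24.3, 16.1 and 21.4% in controls 1, 2 and 3. Unthinned endothelial nuclei, at medians of 659.5 to 1048 UMIs in knockouts and 658.5 to 1232 in controls, held it in 14.2, 13.6 and 6.36% in knockouts, against 7.66, 8.33 and 4.31% in controls.

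**Figure D5:**
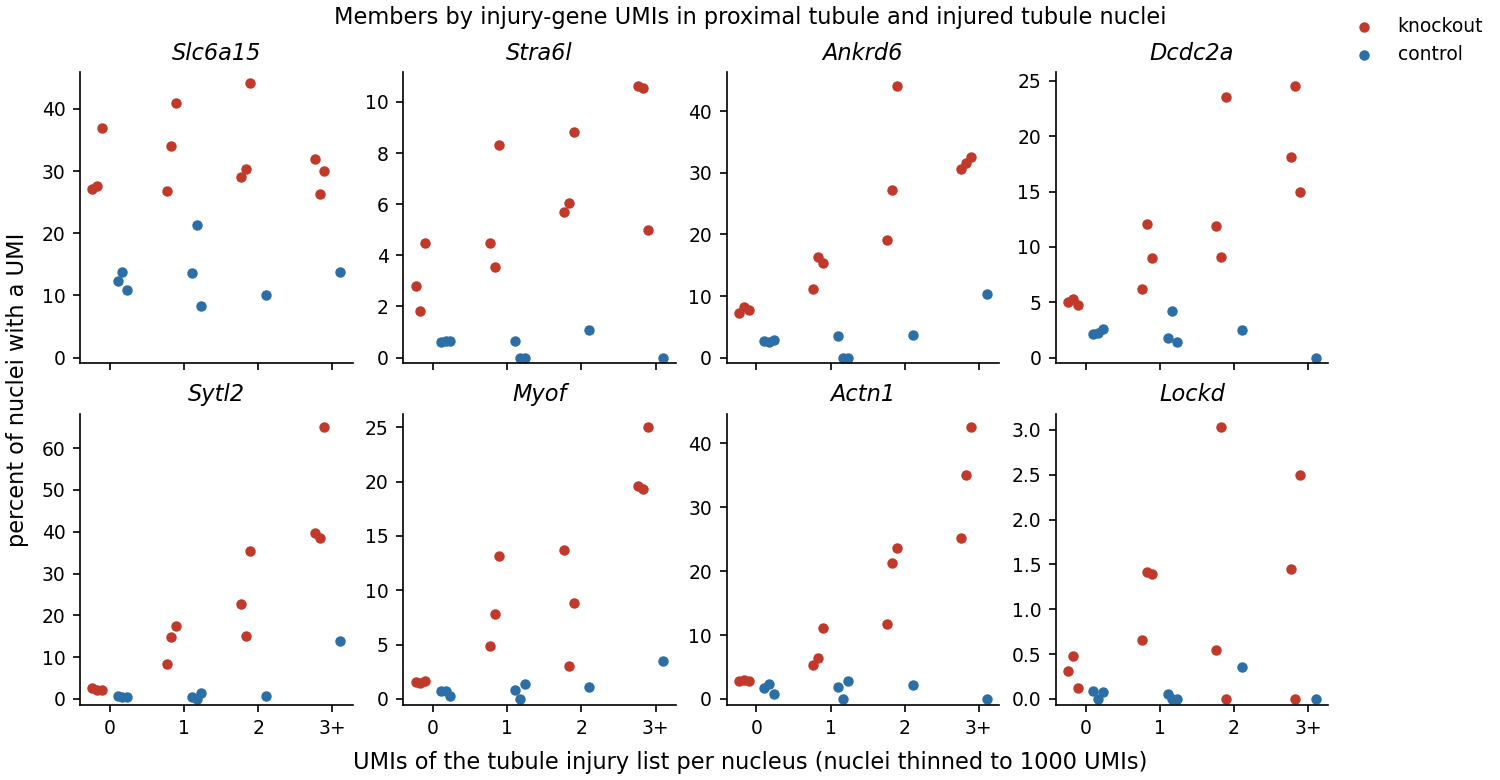
Percent of proximal tubule and injured nuclei with a UMI of each gene, by UMIs of the tubule injury list per nucleus after thinning to 1000 UMIs, with a point for each library that had at least 20 nuclei in a bin, knockouts left of controls. In knockouts the mean for Sytl2 is 2.27% at 0 injury UMIs and 47.7% at 3 or more, while Slc6a15 stays near 30%.

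No family or partner gene of the 8 passed an adjusted p of 0.05 by edgeR without a block. Of the 78 genes of the 8 partner lists tested over the whole cortex, 0 reached it and 18 had an unadjusted p under 0.05. That is a larger share than the 9.84% of all genes tested. The lists were chosen with earlier results of these data known, so nothing is read from the count. In proximal tubule nuclei 0 of 62 reached it, with 9 under the unadjusted 0.05, beside 6.94% of all genes. DESeq2 called 5 over the whole cortex (Rdh10, Anxa2, Prickle2, Itgb1 and Dclk2), beside 3.07% of all genes, and 2 in proximal tubule nuclei (Tln2 and Dclk2), beside 0.932%. With same-numbered libraries as a block, edgeR called 1, Slc6a19, over the whole cortex, beside 1.77%. At an unadjusted p under 0.05 the whole cortex held 7 of the 12 tested Actn1 partners, 3 of 8 in the Myof list, 2 of 10 in the retinoid list, 2 of 9 in the Slc6a15 family and 1 in each of the other 4 lists. Itgb1 (a beta integrin) had a log2 change of 0.56 ± 0.12 (SE; edgeR adjusted p = 0.14) and Vcl (vinculin, an adhesion adaptor that binds alpha-actinin) of 0.58 ± 0.16 (adjusted p = 0.22). Anxa2, a membrane-binding annexin, had 0.96 ± 0.24 (adjusted p = 0.21). Rdh10, a retinol dehydrogenase, had 0.82 ± 0.18 (adjusted p = 0.15). Mlph, a Rab27 effector, had 1.08 ± 0.30 (adjusted p = 0.24). Dclk2, a doublecortin-like kinase, had 1.15 ± 0.28 (adjusted p = 0.19) and Prickle2, a planar polarity gene, 0.75 ± 0.20 (adjusted p = 0.22). Slc6a19, the apical neutral amino acid carrier of the proximal tubule, had the opposite sign to Slc6a15, -0.91 ± 0.33 (adjusted p = 0.40).

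The tubule injury list, whose genes were also markers of the injured class, moved more. It too was chosen with earlier results of these data known, so nothing is read from its counts. Over the whole cortex 2 of its 10 tested genes rose at an adjusted p of 0.05, beside 0.13% of all genes. Vcam1 averaged 40.1 ± 21.6 CPM in knockouts and 2.10 ± 0.823 CPM in controls, and C3 averaged 17.1 ± 4.00 CPM in knockouts and 1.23 ± 0.684 CPM in controls (SD, n = 3 each). Their log2 changes were 4.10 ± 0.51 and 3.80 ± 0.44 (SE; edgeR adjusted p = 0.048 for both). Both calls were lost without control 1, 2 or 3 or knockout 2 or 3, at adjusted p-values of 0.054 to 0.26 and log2 changes of 3.45 to 4.54, and held without knockout 1. With same-numbered libraries as a block 6 of the 10 passed (1.77% of all genes), and by DESeq2 7 did (3.07%). The median log2 change of the 10 genes was 2.72, beside -0.03 over all genes tested. In proximal tubule nuclei 0 of the 5 tested passed, beside 0.0382% of all genes. Of the 5, 3 had an unadjusted p under 0.05, beside 6.94% of all genes. There C3 had a log2 change of 3.14 (edgeR adjusted p = 0.15) and Havcr1 of 1.68 (adjusted p = 0.60).

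Genes whose pattern over classes and libraries was most like each of the 8 were ranked by Pearson correlation of log2(CPM + 10) over 73 sums of a class in a library, among 7010 genes. The sums share libraries and free RNA, so r is a description. Lockd was nearest to Top2a (0.86), Anln (0.86) and Cenpp (0.85), which are mitosis genes. Slc6a15 was nearest to Rhobtb1 (0.88), Dab2 (0.83) and Trps1 (0.82), and Stra6l to Slc6a15 (0.79), Rhobtb1 (0.74) and Il34 (0.72). Ankrd6 was nearest to Cftr (0.80), St3gal3 (0.73) and Sh3d19 (0.73), and Sytl2 to Itgb6 (0.71), Itga1 (0.70) and Prom1 (0.69). Actn1 was nearest to Rtn4 (0.74), Mark1 (0.74) and Myh9 (0.73), Myof to Gmds (0.77), Anxa2 (0.74) and Samd4 (0.73), and Dcdc2a to Fat1 (0.71), Gmds (0.70) and Ppfibp1 (0.69).

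RefSeq start windows, from 250 bases before to 50 after the start, were at hand for 6 of the genes (9 windows, GRCm38.p6). They were searched on both strands for an AP-1 site (TGANTCA), a TEAD site (GGAATG) and a CCAAT box (CCAAT), none of which contains another. The AP-1 letters were in 0 of 9 windows, beside 7.81% of 32851 windows of all genes, and the TEAD letters in 0 of 9, beside 14.7%. The CCAAT box was in 4 of 9, beside 37.4%, in a window each of Ankrd6, Lockd, Actn1 and Myof. The windows of Actn1 (chr12:80260314-80260613, minus strand), Myof (chr19:38043528-38043827, minus strand) and Lockd (chr6:134928842-134929141, plus strand) are printed with the CCAAT box of either strand in capitals. They were picked because Actn1 and Myof were high in injured nuclei and Lockd in cycling nuclei. A match describes these letters only:
Actn1 promoter: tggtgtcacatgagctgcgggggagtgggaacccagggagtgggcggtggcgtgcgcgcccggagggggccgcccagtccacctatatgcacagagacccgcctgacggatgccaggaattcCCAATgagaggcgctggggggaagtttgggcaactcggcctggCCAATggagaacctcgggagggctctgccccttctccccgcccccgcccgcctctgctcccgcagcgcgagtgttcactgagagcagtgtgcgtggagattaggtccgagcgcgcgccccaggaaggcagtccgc
Myof promoter: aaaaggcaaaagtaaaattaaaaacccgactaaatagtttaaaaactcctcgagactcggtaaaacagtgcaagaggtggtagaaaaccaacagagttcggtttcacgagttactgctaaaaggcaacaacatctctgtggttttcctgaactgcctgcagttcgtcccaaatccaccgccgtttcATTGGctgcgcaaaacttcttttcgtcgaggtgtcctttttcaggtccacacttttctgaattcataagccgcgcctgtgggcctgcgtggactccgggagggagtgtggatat
Lockd promoter: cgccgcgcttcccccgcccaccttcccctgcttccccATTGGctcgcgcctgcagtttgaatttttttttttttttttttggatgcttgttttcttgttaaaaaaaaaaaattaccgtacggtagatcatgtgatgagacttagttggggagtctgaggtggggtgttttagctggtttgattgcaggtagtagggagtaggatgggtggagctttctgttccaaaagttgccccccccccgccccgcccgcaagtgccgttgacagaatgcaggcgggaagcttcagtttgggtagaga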

How the data were processed

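The authors deposited raw UMI counts per gene and barcode for each library, made on mm10 with Cell Ranger, whose version is 3.1.0 per the file headers. Seurat is named in the submitters' processing notes without a version. Further settings are not stated in these sources. The other deposited files list barcodes and 31053 genes. Nuclei with at least 300 genes and at most 5% mitochondrial UMIs were kept, and the highest Scrublet doublet scores (0.8% per 1000 barcodes) were removed. Nuclei were clustered without the 8 genes (scanpy 1.11.5, Leiden, resolution 1.5, then 2.5 outside the proximal tubule, for 3000 variable genes), and clusters were named from marker genes.

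UMIs were summed per library and class and fitted with edgeR 4.0.16 (quasi-likelihood, TMM, low-count filter by group, Benjamini-Hochberg adjusted p of 0.05 over all genes of a fit). Classes of the controls were compared in 1 fit with library as a block. Lists of partner genes, markers and the 8 genes themselves were chosen with earlier results of these data known. The rule for other named genes takes the 3 most correlated genes of each of the 8, and from each list all genes that pass, up to 4, or else the 2 of lowest p. Same-numbered knockouts and controls deviated together (r = 0.715, 0.397 and 0.458 over genes). Knockout 2 with control 3 (r = 0.442) and knockout 3 with control 2 (r = 0.422) did so as well. Only knockout 1 and control 1 are thus set apart as a pair, and a pairing of the libraries numbered 2 and 3 is not shown. The labels do not say what a number stands for, so same-numbered pairs served as a block in an alternative only. With the pairs as a block the calls went to 286 over the whole cortex, 11 in proximal tubule, 257 over the 5 other tubule classes and 439 over the 5 remaining classes, against 28, 5, 1 and 122 without it. Intervals and floors cover counting error only. Scripts were tested on simulated data. Alternatives were another tool (DESeq2 1.42.0), no low-count filter, the pairs as a block, other class rules, doublets kept, shared barcodes left out and each library left out.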

Additional observations from a re-analysis of the deposited data

How the results depend on the processing

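The direction of the 8 genes, higher in knockouts, held in all 104 values over 13 alternatives in the whole cortex and in all 116 over 15 alternatives in proximal tubule nuclei. The counts of genes called over all genes were not stable. Over the whole cortex 28 genes were called, against 497 with DESeq2, 69 with no low-count filter, 286 with the replicate block and 464 without knockout 1 and control 1, and 0 to 38 with any single library left out. In proximal tubule nuclei 5 were called, against 122 with DESeq2, 11 with no filter and 11 with the block, and 0 to 4 with a library left out. In the 5 other tubule classes 1 was called, against 36 with DESeq2, 4 with classes by highest marker score, 0 with doublets kept, 0 with the 8 genes among the clustering genes, 464 with no filter, 257 with the block and 185 without knockout 1 and control 1, and 0 to 13 with a library left out. In the 5 remaining classes 122 were called, against 61 with doublets kept, 513 with no filter, 439 with the block and 319 without knockout 1 and control 1, and 5 to 570 with a library left out. The cause was not tested.

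For injured over proximal tubule nuclei in controls, 520 of 6584 genes differed (7.9%), against 1368 with classes by highest marker score, 268 with no library block, 834 with no filter and 150 to 494 with a control left out. With a control left out, 3 to 4 of the 8 genes were called. Stra6l was not tested in the main fit, and nothing is read from this count. This comparison was not run with the 8 genes among the clustering genes, with doublets kept or with shared barcodes left out, since a control library then had under 5 injured nuclei. Slc6a15 there changed sign with no filter (-0.26), by highest marker score (-0.27), without control 2 (-0.15) and without control 3 (-0.13), and stood at 0.58 without control 1. Dcdc2a changed sign without control 1 (-6.70, on 15 nuclei with 0 UMIs) and stood at up to 1.04 with another control left out. Anxa2 in proximal tubule nuclei changed sign without control 3 (-0.11) and without knockout 1 (-0.14), and reached 1.00 without control 1. The Vcam1 and C3 calls over the whole cortex were each lost in 5 of 13 alternatives, at adjusted p-values up to 0.26 and 0.23.

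The share of injured nuclei differed by 4.77 to 6.86 percentage points with a library left out, by 2.95 with the 8 genes among the clustering genes and by 8.70 with classes by highest marker score. Genes with over 50% of the rise from shares numbered 1, and 2 with the 8 genes among the clustering genes, where Actn1 reached 51.0%. Over all alternatives the share part ran between 23.2 and 45.4% for Sytl2, 21.9 and 39.1% for Ankrd6, and 7.12 and 26% for Dcdc2a. Few UMIs limit Lockd and Stra6l outside cycling, injured and proximal tubule nuclei, and few control nuclei limit every level in the injured class.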
